A study of Homo sapiens with 16 samples.

Results

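Treatment of A549 cells with the compound 7F8 for 48 h was compared with the DMSO control of the same time, over 14752 genes in 4 of the 16 RNA libraries of the study. A549 is an epithelial line from a human lung carcinoma. All 16 libraries came from A549 cells that overexpress CD63-Nluc, in which the vesicle protein CD63 is joined to a luciferase, so the controls carry the fusion too. The groups used here were DMSO for 48 h, 7F8 for 48 h, the other inhibitors 5G6 and 6D7 for 48 h, and DMSO and 7F8 for 4 h, each with 2 replicates that the series calls biological. The libraries of 5G6 and 6D7 for 4 h entered the fit but no comparison. The labels print 4 µM for each inhibitor and for DMSO, and the compounds are known here by code name only. The transgene was an overexpressed fusion, and neither its promoter nor whether the line was 1 clone was given. The title of the series names exosome release and the AMPK and SREBP pathway. The 14752 genes are those with at least 1 TPM, the length-normalised share of transcripts, in at least 2 of the 4 libraries, out of 26156 genes above 0 in any of the 16 libraries. Of the 14752, 340 reached 1 TPM in both DMSO libraries only and 164 in both 7F8 libraries only, so such genes passed through the group in which they are high.

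AMPK is a kinase that responds to low cellular energy, and the SREBP proteins turn on genes for making sterols and fatty acids. NF-kB is a transcription factor held in the cytoplasm by inhibitor proteins until a stimulus frees it, after which it switches on chemokines, cytokines and its own inhibitors. Entry into S phase depends on E2F factors, which drive genes of DNA replication. Genes of mitosis are shut off in resting cells by the DREAM complex through CHR elements. Lysosomes hold the acid hydrolases that break down material delivered by endocytosis and autophagy, and multivesicular bodies either fuse with them or release their vesicles as exosomes.

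The libraries held 6.10 to 8.86 aligned gigabases, and 13378 to 14909 genes reached 1 TPM in them. Keratins and the aldo-keto reductases typical of A549 were high in all 4 libraries, and the 12 epithelial and A549 markers summed to 28574 and 31503 TPM with DMSO and to 15973 and 17085 TPM with 7F8. Of 9 alveolar type 2 markers 3 passed the filter. ABCA3 had 15.0 and 20.1 TPM with DMSO and 24.2 and 32.9 TPM with 7F8. LAMP3 had 5.42 and 0.529 TPM with DMSO and 5.49 and 0.497 TPM with 7F8. NAPSA had 1.21 and 2.24 TPM with DMSO and 1.27 and 1.24 TPM with 7F8. The alveolar surfactant gene SFTPA1, its regulator NKX2-1 and the transporter SLC34A2 were listed at 0 in all 4 libraries, and no other surfactant gene reached 1 TPM. All 7 endothelial markers stayed below 1 TPM. Of 8 fibroblast markers only COL1A1 passed the filter, with 20.8 and 5.85 TPM with DMSO and 18.7 and 5.43 TPM with 7F8. Of 8 leukocyte markers CD14 and ITGAM passed, and T and B cell genes stayed below 1 TPM. The 7F8 libraries did not stand at the same distance from the controls: replicate 1 lay further from the DMSO mean than replicate 2 in 1138 of the 1472 genes called below (270 of 386 higher, 868 of 1086 lower). What sets it apart was not tested. The value of each replicate is therefore given in the order replicate 1, replicate 2.

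At 48 h, many inflammatory, acute-phase and lysosomal genes were higher with 7F8, as counted below. Many genes of cell division, DNA replication and ribosome assembly were lower, as were 7 of 15 in a mixed mucin and secretory list. A gene was called when the limma test on log2(TPM + 1), adjusted by Benjamini-Hochberg over all 14752 genes, gave an adjusted p below 0.05. The test called 386 genes higher (2.62% of those tested) and 1086 lower (7.36%), and 3834 had an unadjusted p below 0.05. At least a 2-fold difference was found in 296 of the higher and 719 of the lower genes. The median difference over all genes was −0.19 on the log2 scale. After median-of-ratios scaling, which brought that median to 0.01, 590 genes were higher (4.0%) and 610 lower (4.14%). Of the calls, 378 higher and 610 lower ones passed under both scalings, and 0 called genes changed sign. In all 1472 called genes the TPM values of the groups did not overlap. Over all 14752 genes tested, both 7F8 libraries lay above both DMSO libraries in 2507 genes and below them in 5871. No overlap was also a condition for naming a called gene, so it adds no support to a named call. With only the DMSO and 7F8 libraries of 48 h in the fit, 225 genes were called. The main fit took the spread of each gene from all 16 libraries, 5G6 and 6D7 at 4 h included. The p-values measure only the spread between these samples, and with 2 libraries a group a single library weighs heavily: 72 genes were called without DMSO replicate 1, 500 without DMSO replicate 2, 90 without 7F8 replicate 1 and 1084 without 7F8 replicate 2. Differences are given as log2 of TPM plus 1, so those of weak genes come out too small. The sign ± gives the standard error of the main fit over 16 libraries, with n = 2 libraries a group.

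**Figure D1:**
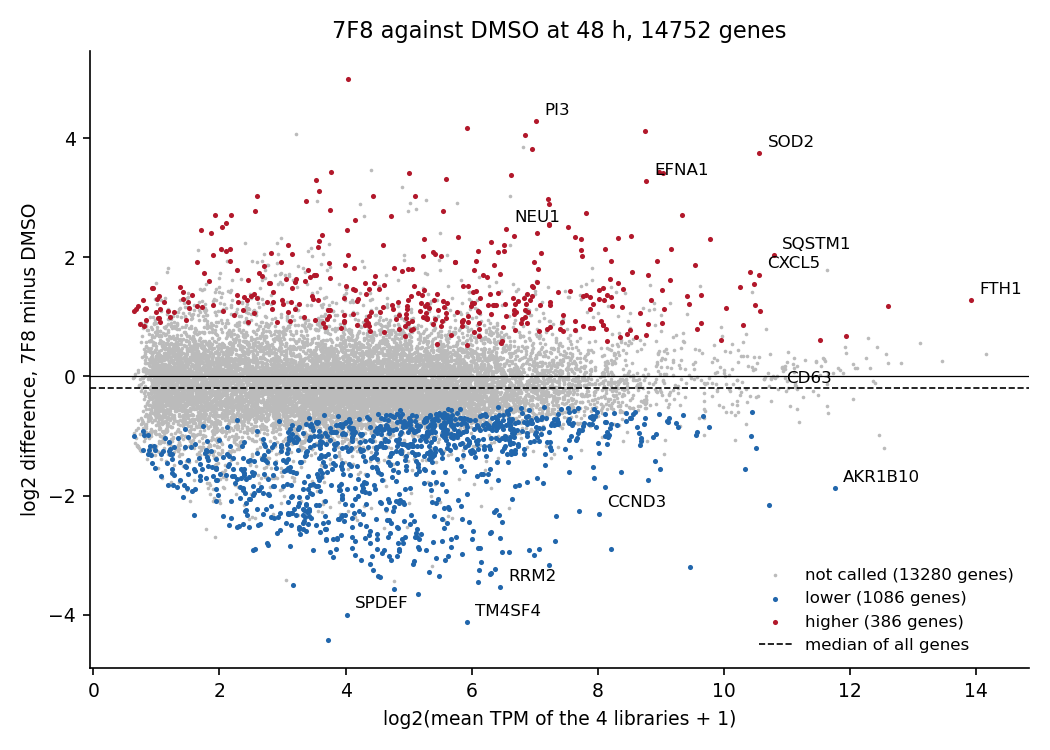
Log2 difference of 7F8 minus DMSO at 48 h (vertical) against log2 of the mean TPM plus 1 over the 4 libraries (horizontal), 1 point a gene. The 386 genes called higher are red, the 1086 called lower blue, and the dashed line is the median of all genes at −0.19.

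NF-kB targets had the highest median of the 38 lists described. Of 35 tested chemokines, cytokines and feedback genes of this pathway, 18 were called higher (51.4%, against 2.62% of all genes) and 0 lower. Their median was 1.48, against −0.19 over all genes. The median was 1.92 in 7F8 replicate 1 and 1.43 in 7F8 replicate 2. SOD2 (chr6:159669069-159762529 in the deposited tables, GRCh38), the manganese superoxide dismutase of mitochondria, had 229 and 184 TPM with DMSO and 3308 and 2323 TPM with 7F8, a difference of 3.75 ± 0.28 (adjusted p = 0.000163). CXCL8, the main neutrophil chemokine, had 98 and 70.5 TPM with DMSO and 1304 and 623 TPM with 7F8 (3.42 ± 0.83, adjusted p = 0.0241). IL6, a cytokine that drives the acute-phase response, had 15.6 and 13.6 TPM with DMSO and 265 and 96.6 TPM with 7F8 (3.37 ± 0.41, adjusted p = 0.00194). In each of these genes replicate 1 was the higher of the 7F8 pair. CCL20, a chemokine for dendritic and T cells, had 11.1 and 19.8 TPM with DMSO and 178 and 282 TPM with 7F8 (3.82 ± 1.02, adjusted p = 0.0355), with replicate 2 the higher in both groups. CSF1, the macrophage growth factor, had 30.5 and 31.7 TPM with DMSO and 173 and 126 TPM with 7F8 (2.21 ± 0.26, adjusted p = 0.00194). CXCL5, another neutrophil chemokine, was already abundant with 655 and 732 TPM in the controls and reached 2742 and 1871 TPM (1.71 ± 0.20, adjusted p = 0.00194). The factor subunits themselves spread more widely: RELB was called higher (1.93 ± 0.35), whereas NFKB1 (0.77 ± 0.30, adjusted p = 0.123) and RELA (0.41 ± 0.29, adjusted p = 0.412) were not called. Among the inhibitors that close the loop, TNFAIP3 was called higher with 25 and 27.6 TPM with DMSO and 144 and 116 TPM with 7F8, and NFKBIA had 149 and 233 TPM with DMSO and 454 and 539.9 TPM with 7F8 without passing the test (adjusted p = 0.0649).

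With single libraries left out, in the order DMSO replicate 1, DMSO replicate 2, 7F8 replicate 1 and 7F8 replicate 2, 5, 10, 7 and 16 NF-kB targets were called. SOD2, IL6, CSF1 and CXCL5 stayed called in all of these 4 fits, with adjusted p up to 0.00398, 0.0306, 0.031 and 0.0336. CXCL8 stayed called only without 7F8 replicate 2, with adjusted p of 0.0414 to 0.191 over the 4 fits, and CCL20 in none, with 0.0964 to 0.186.

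Chemokine promoters are shown because they carry the NF-kB type letters shared by much of the list. Each is the 160 bases before the start site from RefSeq (GRCh38.p14), printed 5′ to 3′ on the strand of the gene, with matches to GGNNTTTCC on either strand in capitals. The start sites lie within 1 base of the gene starts or ends of the deposited tables.
CCL20, chr2:227813682-227813841, plus strand: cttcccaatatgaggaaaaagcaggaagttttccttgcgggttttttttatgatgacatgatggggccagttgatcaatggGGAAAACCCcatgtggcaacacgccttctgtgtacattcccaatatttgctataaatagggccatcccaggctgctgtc
CXCL1, chr4:73869233-73869392, plus strand: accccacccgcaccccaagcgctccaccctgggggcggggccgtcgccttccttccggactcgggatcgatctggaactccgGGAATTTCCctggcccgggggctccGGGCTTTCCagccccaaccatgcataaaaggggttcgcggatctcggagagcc
CXCL5, chr4:73998678-73998837, minus strand: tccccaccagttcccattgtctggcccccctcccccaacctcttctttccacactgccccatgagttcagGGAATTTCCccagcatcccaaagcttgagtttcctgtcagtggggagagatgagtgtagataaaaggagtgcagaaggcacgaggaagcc
The match began 79 bases before the start in CCL20, 78 and 53 bases before it in CXCL1, and 90 bases before it in CXCL5. CXCL1, a neutrophil chemokine like its neighbour CXCL5, had 154 and 182 TPM with DMSO and 1316 and 918 TPM with 7F8 (2.71 ± 0.62, adjusted p = 0.0197). Over windows of 250 bases before to 50 after the start, GGNNTTTCC occurred in 19 of 28 promoters of the NF-kB list (67.9%), in 1710 of all 27305 RefSeq promoters (6.26%) and in 6.72% of the 10973 promoters of tested genes. The motif first chosen, GGGNNTTCC, occurred in 8 of the 28 (28.6%), in 6.6% of all promoters and in 8.18% of those of tested genes. Among genes called higher, GGNNTTTCC occurred in 27 of 266 promoters (10.15%) and GGGNNTTCC in 30 (11.28%). The letters in GGNNTTTCC were added after the values had been seen, and a match is a description of letters, not of a bound site.

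Acute-phase and epithelial defence genes held several of the largest rises. Of 18 tested genes 7 were called higher (38.9%, against 2.62% of all genes) and 0 lower. Their median was 1.43 (2.06 in 7F8 replicate 1 and 0.92 in 7F8 replicate 2). PI3, the elastase inhibitor elafin, had 9.23 and 10.3 TPM with DMSO and 378 and 116 TPM with 7F8 (4.29 ± 0.54, adjusted p = 0.00201). The serum amyloid genes SAA1, with 14.1 and 3.11 TPM with DMSO and 397 and 42.2 TPM with 7F8 (4.06 ± 1.00, adjusted p = 0.0263), and SAA2, with 5.58 and 1.99 TPM with DMSO and 201 and 30.4 TPM with 7F8 (4.17 ± 0.76, adjusted p = 0.0092), are close copies of each other, so reads may be split between them. CFB, the serine protease of the alternative complement pathway, had 70.7 and 69.9 TPM with DMSO and 1449.8 and 407 TPM with 7F8 (3.43 ± 0.60, adjusted p = 0.00761). In these genes replicate 1 of 7F8 stood several-fold above replicate 2. C3, the central complement protein, had 46.5 and 67.3 TPM with DMSO and 473 and 306 TPM with 7F8 (2.74 ± 0.43, adjusted p = 0.00554), with the 7F8 replicates closer together. Of the fibrinogen genes, FGB had 22 and 35.4 TPM with DMSO and 3.37 and 6.23 TPM with 7F8 (−2.36 ± 0.84, adjusted p = 0.0988) and FGG 45.9 and 121 TPM with DMSO and 66 and 85.7 TPM with 7F8. Without DMSO replicate 1, DMSO replicate 2, 7F8 replicate 1 or 7F8 replicate 2, 1, 3, 1 and 7 genes of the list were called. PI3 stayed called in all 4 fits, whereas the adjusted p ran over 0.00951 to 0.242 for SAA1, 0.0033 to 0.0854 for SAA2, 0.00489 to 0.0831 for CFB and 0.00978 to 0.0698 for C3.

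Of 42 interferon-stimulated genes 3 (7.14%, against 2.62% of all genes) were called higher (CXCL10, B2M and IFIT2) and 0 lower. The list median was 1.67 in 7F8 replicate 1 and 0.12 in 7F8 replicate 2. CXCL10, a chemokine for activated T cells, had 3.56 and 5.76 TPM with DMSO and 22.1 and 17.7 TPM with 7F8 (1.90 ± 0.37, adjusted p = 0.0116). B2M, the light chain of class I HLA molecules, had 505 and 359.7 TPM with DMSO and 1481 and 827 TPM with 7F8 (1.37 ± 0.30, adjusted p = 0.0164). IFIT2, an antiviral protein induced by interferon, had 122 and 150.3 TPM with DMSO and 540.4 and 269 TPM with 7F8 (1.49 ± 0.42, adjusted p = 0.043). IFNL2, a type III interferon with near-identical copies among which reads may be split, had 9.04 and 24.9 TPM with DMSO and 58.1 and 75.6 TPM with 7F8 (2.06 ± 0.41, adjusted p = 0.0121). The antiviral GTPase MX1 was at 157 and 8.88 TPM with DMSO and 187 and 7.15 TPM with 7F8 and was not called, with replicate 1 far above replicate 2 in both groups. Over the list, DMSO replicate 1 also lay 0.48 above the DMSO mean in the median, and replicate 2 as far below it. In fits without 1 library in the same order 0, 1, 0 and 4 genes of the list were called, and the adjusted p ran over 0.0271 to 0.117 for CXCL10, 0.01 to 0.166 for B2M, 0.0279 to 0.333 for IFIT2 and 0.0118 to 0.102 for IFNL2.

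Several other genes with large rises lay outside these lists. EFNA1 (chr1:155127873-155134910), a membrane-bound ligand of Eph receptors, had 74.4 and 83.2 TPM with DMSO and 915 and 656 TPM with 7F8 (3.28 ± 0.45, adjusted p = 0.00292). G0S2, an inhibitor of the triglyceride lipase ATGL, had 7.97 and 7.15 TPM with DMSO and 108 and 66 TPM with 7F8 (3.32 ± 0.32, adjusted p = 0.00101). Both stayed called whichever of the 4 libraries was left out, with adjusted p up to 0.0441 and 0.0144. OLR1, a scavenger receptor for oxidised LDL, had 6.15 and 2.23 TPM with DMSO and 86.8 and 28.7 TPM with 7F8 (3.41 ± 0.61, adjusted p = 0.00827; 0.00833 to 0.0993 with single libraries left out). HSD11B1, which regenerates active cortisol, had 0.984 and 0.0834 TPM with DMSO and 45 and 4.5 TPM with 7F8 (3.44 ± 0.98, adjusted p = 0.0461; 0.0138 to 0.369 with single libraries left out), with replicate 1 far above replicate 2 in both groups. RNF113A, a spliceosome-associated ubiquitin ligase, was listed at 0 in both DMSO libraries and at 33.3 and 28.8 TPM with 7F8. It was also listed at 0 in 1 of the 2 libraries of 7F8 at 4 h and at 29 and 36.8 TPM with DMSO at 4 h, so no fold is given. HSD11B1 and RNF113A were below 1 TPM in both DMSO libraries at 48 h, so they passed the filter through 7F8.

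**Figure D2:**
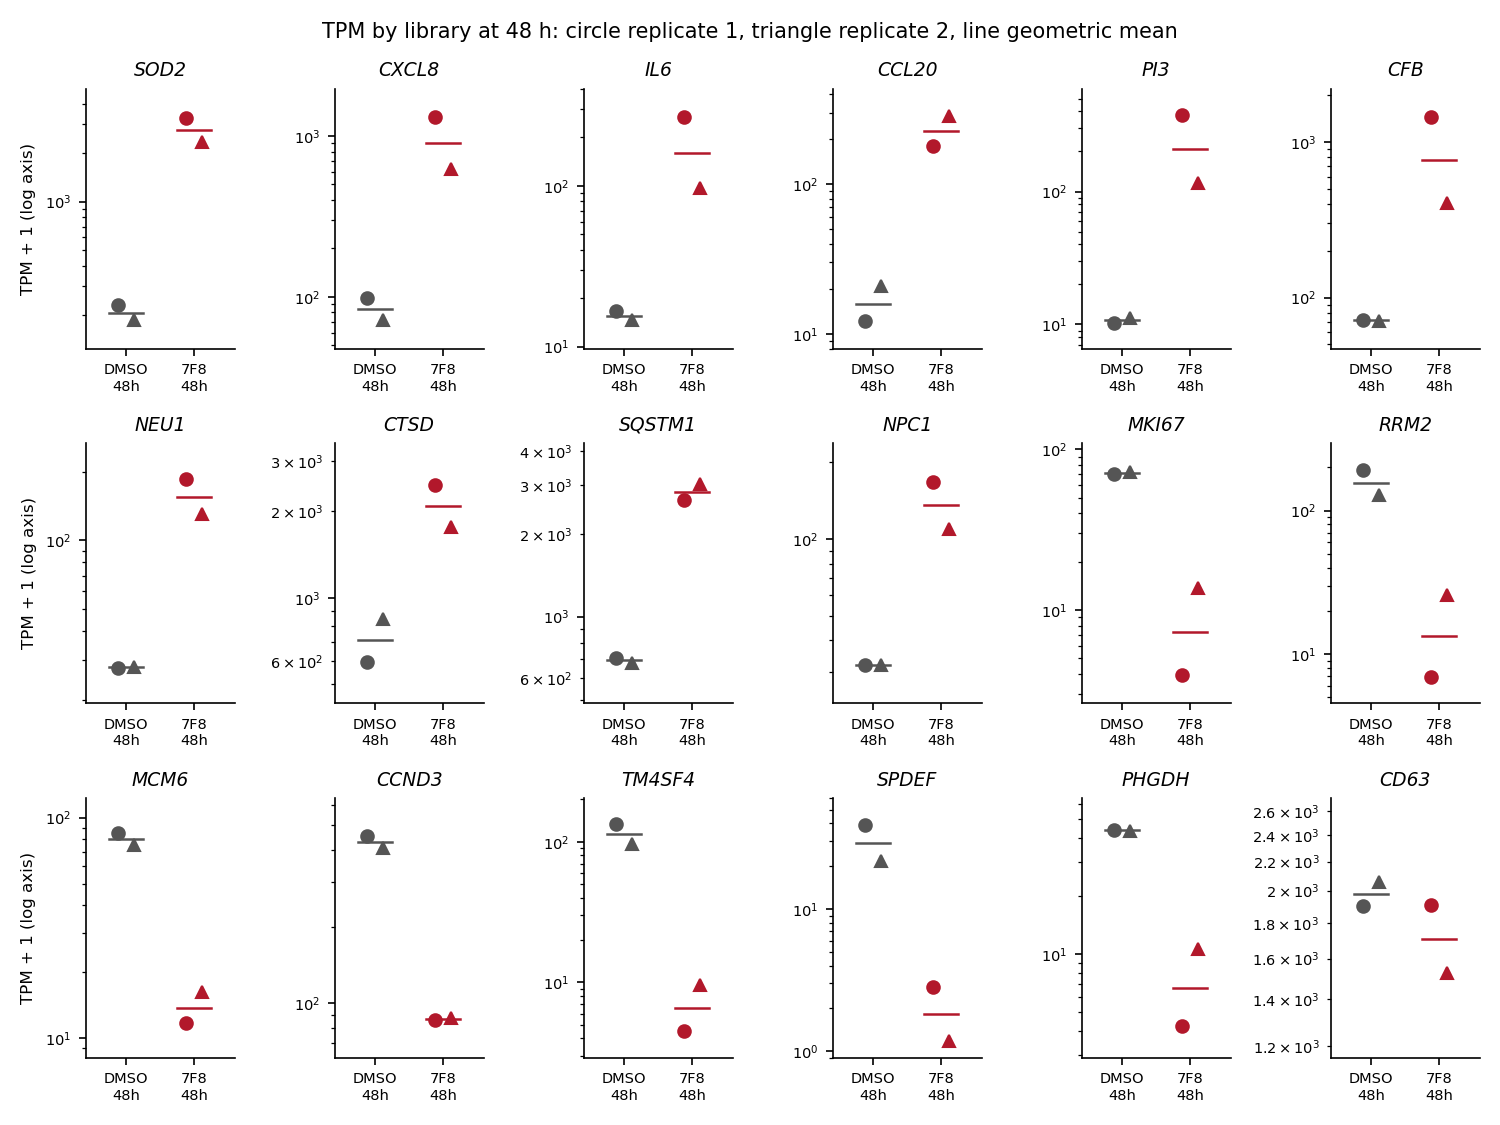
TPM plus 1 on log axes of 18 named genes in the DMSO and 7F8 libraries at 48 h. Circles are replicate 1, triangles replicate 2 and lines the geometric mean; SOD2 reached 3308 and 2323 TPM with 7F8 against 229 and 184 TPM, MKI67 fell to 2.96 and 12.7 TPM from 69.2 and 71.4 TPM, and the CD63 groups overlap.

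Of 44 lysosomal hydrolases and membrane proteins 21 were called higher (47.7%, against 2.62% of all genes) and 0 lower. The list median of 0.87 was 0.87 in 7F8 replicate 1 and 0.78 in 7F8 replicate 2. NEU1 (chr6:31859052-31862932), the lysosomal sialidase, had 26.6 and 27 TPM with DMSO and 185 and 129 TPM with 7F8 (2.48 ± 0.24, adjusted p = 0.00101). The cathepsins CTSB, a cysteine protease, and CTSD, an aspartic protease, had 182 and 234 TPM with DMSO and 699 and 654 TPM with 7F8 (1.71 ± 0.21, adjusted p = 0.00201) and 598 and 842 TPM with DMSO and 2468 and 1767 TPM with 7F8 (1.56 ± 0.22, adjusted p = 0.00308). No overlap between the groups was a condition for naming these genes, so it adds no support. Some hydrolases were lower in both 7F8 libraries without a call: GALC, a galactolipid hydrolase, had 22.5 and 35.6 TPM with DMSO and 11.9 and 18.3 TPM with 7F8 (−0.90 ± 0.32, adjusted p = 0.0964). GLA, the alpha-galactosidase, had 139 and 127 TPM with DMSO and 107 and 79.4 TPM with 7F8 (−0.52 ± 0.23, adjusted p = 0.179). NPC1 and NPC2, which together carry cholesterol out of the lysosome, were both called higher, NPC1 with 31.1 and 30.9 TPM with DMSO and 167 and 109 TPM with 7F8 (2.08 ± 0.35, adjusted p = 0.00671) and NPC2 with 193 and 130.1 TPM with DMSO and 528 and 419 TPM with 7F8 (1.56 ± 0.25, adjusted p = 0.00567). Of 16 subunits of the V-ATPase, the proton pump of the lysosome, 2 were called higher (ATP6AP1 and ATP6V0E1) and 0 lower. This is 12.5% against 2.62% of all genes called higher. Leaving out DMSO replicate 1, DMSO replicate 2, 7F8 replicate 1 or 7F8 replicate 2 left 2, 11, 4 and 13 lysosomal genes called. NEU1 and CTSB stayed called in all 4 fits, CTSD had an adjusted p of 0.051 without DMSO replicate 1, and NPC1 of 0.0105 to 0.0852 over the 4 fits.

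Of 34 autophagy genes 7 were called higher (20.6%, against 2.62% of all genes) and 0 lower, with a median of 0.13. The receptors that bring cargo to the autophagosome were among them: SQSTM1 (p62) had 709.7 and 678 TPM with DMSO and 2663 and 3036 TPM with 7F8 (2.03 ± 0.22, adjusted p = 0.00148) and OPTN 48.4 and 44.4 TPM with DMSO and 123 and 124 TPM with 7F8 (1.39 ± 0.19, adjusted p = 0.00308). RRAGD, a GTPase that recruits mTORC1 to lysosomes, had 2.19 and 2.89 TPM with DMSO and 8.59 and 10.3 TPM with 7F8 (1.56 ± 0.25, adjusted p = 0.00554). The core conjugation genes ATG5 (−0.36 ± 0.27) and ATG7 (0.01 ± 0.20) and the regulators TFEB (−0.47 ± 0.44) and TFE3 (−0.14 ± 0.22) were not called. FTH1, the heavy chain of the iron store ferritin, rose from 8439.9 and 9588 TPM to 24235 and 19750.2 TPM (1.28 ± 0.16, adjusted p = 0.00207). With single libraries left out in the same order 2, 5, 3 and 6 autophagy genes were called. SQSTM1, OPTN and FTH1 stayed called in all 4 fits, and RRAGD had an adjusted p of 0.0699 without DMSO replicate 1.

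Most genes of mitosis fell. Of 48 tested, 43 were called lower (89.6%, against 7.36% of all genes) and 0 higher. Their median was −2.71 (−3.51 in 7F8 replicate 1 and −1.92 in 7F8 replicate 2). MKI67 (chr10:128096659-128126423), the proliferation antigen Ki-67, had 69.2 and 71.4 TPM with DMSO and 2.96 and 12.7 TPM with 7F8 (−3.28 ± 0.67, adjusted p = 0.013). CDC20, the activator of the anaphase-promoting complex, had 159 and 118 TPM with DMSO and 6.68 and 24 TPM with 7F8 (−3.32 ± 0.59, adjusted p = 0.00827). PLK1, a kinase that drives mitotic entry, had 144 and 134 TPM with DMSO and 6.39 and 26.5 TPM with 7F8 (−3.30 ± 0.67, adjusted p = 0.013). In each of them replicate 1 of 7F8 lay several-fold below replicate 2. The chromosomal passenger genes AURKB, a kinase, and BIRC5, survivin, had 136 and 108 TPM with DMSO and 4.38 and 22.3 TPM with 7F8 (−3.45 ± 0.73) and 159 and 137 TPM with DMSO and 17.6 and 39 TPM with 7F8 (−2.45 ± 0.38). AURKA, the spindle-pole kinase, had 134 and 132 TPM with DMSO and 14.7 and 28.8 TPM with 7F8 (−2.63 ± 0.44, adjusted p = 0.00616). KIF18B, a kinesin that controls astral microtubules, had 53.6 and 44.6 TPM with DMSO and 1.64 and 5.77 TPM with 7F8 (−3.56 ± 0.66, adjusted p = 0.00959), and MYBL2, a transcription factor of the late cell cycle, 100.1 and 60.3 TPM with DMSO and 3.63 and 11.7 TPM with 7F8 (−3.36 ± 0.55, adjusted p = 0.00575). In these RNA pools, fewer dividing cells and less RNA of these genes per cell cannot be told apart.

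The number of mitosis genes called depended on the libraries kept: 0, 5, 0 and 45 of the 48 were called without DMSO replicate 1, DMSO replicate 2, 7F8 replicate 1 and 7F8 replicate 2. The adjusted p ran over 0.00951 to 0.138 for MKI67, 0.00649 to 0.0936 for CDC20, 0.00902 to 0.137 for PLK1, 0.00903 to 0.153 for AURKB, 0.00367 to 0.0666 for BIRC5, 0.00895 to 0.0783 for AURKA, 0.0115 to 0.112 for KIF18B and 0.00596 to 0.0719 for MYBL2. The list median lay between −3.51 and −1.92 in these 4 fits.

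DNA replication genes fell as widely, with a smaller gap between the replicates' medians. Of 47 tested 43 were called lower (91.5%, against 7.36% of all genes) and 0 higher. Their median was −2.11 (−2.51 in 7F8 replicate 1 and −1.83 in 7F8 replicate 2). RRM2, the regulated subunit of ribonucleotide reductase, had 189.9 and 126 TPM with DMSO and 5.97 and 24.8 TPM with 7F8 (−3.54 ± 0.71, adjusted p = 0.0127). CDC45 and GINS2, parts of the replicative helicase complex, had 46.4 and 35.4 TPM with DMSO and 1.26 and 6.16 TPM with 7F8 (−3.37 ± 0.66, adjusted p = 0.0116) and 46.4 and 34.5 TPM with DMSO and 1.81 and 4.72 TPM with 7F8 (−3.36 ± 0.39, adjusted p = 0.00194). MCM6 and MCM2, subunits of the helicase ring, had 84.4 and 74.2 TPM with DMSO and 10.7 and 15.1 TPM with 7F8 (−2.55 ± 0.31, adjusted p = 0.00194) and 71.4 and 56.8 TPM with DMSO and 15.2 and 17.2 TPM with 7F8 (−1.91 ± 0.25, adjusted p = 0.00244). The smallest differences in the list were those of SLBP, which binds histone mRNA (−0.40 ± 0.32), and DUT, the dUTPase (−0.59 ± 0.26), and neither was called. In fits without 1 library in the same order 11, 32, 12 and 39 of the 47 were called. GINS2, MCM6 and MCM2 stayed called in all 4 fits, and the adjusted p ran over 0.00951 to 0.135 for RRM2 and 0.00951 to 0.126 for CDC45.

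Promoters of a replication gene and of 2 mitosis genes are shown because the mitosis and replication lists carry different letters. They are printed as above, with matches to TTTGGCGC (E2F type) in capitals for MCM6 and to TTTGAA (CHR) and CCAAT for PLK1 and CDC20, on either strand.
MCM6, chr2:135876444-135876603, minus strand: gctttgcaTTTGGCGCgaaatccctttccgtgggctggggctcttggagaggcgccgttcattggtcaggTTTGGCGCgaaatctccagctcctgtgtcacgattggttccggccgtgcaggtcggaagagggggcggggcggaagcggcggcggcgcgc
PLK1, chr16:23678729-23678888, plus strand: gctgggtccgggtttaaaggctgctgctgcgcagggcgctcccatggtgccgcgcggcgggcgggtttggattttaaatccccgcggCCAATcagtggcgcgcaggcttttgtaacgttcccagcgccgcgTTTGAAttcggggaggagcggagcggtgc
CDC20, chr1:43358821-43358980, plus strand: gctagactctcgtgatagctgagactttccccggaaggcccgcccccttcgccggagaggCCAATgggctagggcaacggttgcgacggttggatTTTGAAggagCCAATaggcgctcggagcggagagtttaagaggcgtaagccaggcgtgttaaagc
The matches began 152 and 90 bases before the start in MCM6. PLK1 had CHR letters 29 and CCAAT letters 73 bases before the start, and CDC20 had CHR letters 65 and CCAAT letters 100 and 55 bases before it. Over the whole windows TTTGAA occurred in 30 of 41 promoters of the mitosis list (73.2%), in 1 of 39 of the replication list (2.56%), in 15.4% of all promoters and in 9.39% of those of tested genes. CCAAT occurred in 32 of the 41 (78.0%), 22 of the 39 (56.4%), 35.7% of all promoters and 36.6% of those of tested genes. TTTGGCGC occurred in 8 of the 39 replication promoters (20.5%), in 1 of the 41 mitosis promoters (2.44%), in 0.659% of all promoters and in 1.08% of those of tested genes. The other E2F form, TTTCCCGC, occurred in 11 of the 39 (28.2%), 2 of the 41 (4.88%), 1.66% of all promoters and 2.69% of those of tested genes. Among the 835 promoters of genes called lower, TTTGAA occurred in 164 (19.64%) and CCAAT in 360 (43.11%). There TTTGGCGC occurred in 31 (3.71%) and TTTCCCGC in 50 (5.99%).

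Homologous recombination repairs DNA while a sister chromatid is present. Of 23 such genes, Fanconi genes included, 17 were called lower (73.9%, against 7.36% of all genes) and 0 higher, with a median of −1.92. FANCD2, the Fanconi protein loaded on crosslinked DNA, had 23.1 and 25.7 TPM with DMSO and 2.15 and 3.61 TPM with 7F8 (−2.73 ± 0.44, adjusted p = 0.00554). RAD54L and XRCC3, which act in strand exchange, had 11.5 and 13.1 TPM with DMSO and 0.708 and 1.9 TPM with 7F8 (−2.57 ± 0.44) and 44.1 and 31.2 TPM with DMSO and 12.1 and 13.2 TPM with 7F8 (−1.48 ± 0.21). With single libraries left out 0, 7, 1 and 16 were called, and the adjusted p ran over 0.0111 to 0.0685 for FANCD2, 0.0116 to 0.0902 for RAD54L and 0.00978 to 0.0523 for XRCC3.

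Of 15 tested G1 cyclins, kinases and inhibitors, 4 were called lower (CCND3, CDKN2C, CDK2 and RBL1) and 0 higher. This is 26.7% against 7.36% of all genes called lower. CCND3, cyclin D3, had 452 and 405 TPM with DMSO and 85.2 and 86.5 TPM with 7F8 (−2.30 ± 0.30, adjusted p = 0.00244) and stayed called in all 4 fits without a library. CDK2, the kinase of the G1 to S step, had 55.9 and 56.6 TPM with DMSO and 16 and 20.8 TPM with 7F8 (−1.57 ± 0.32; 0.0257 to 0.126), and CDKN2C, the inhibitor p18, 47.1 and 55.4 TPM with DMSO and 13.1 and 18.8 TPM with 7F8 (−1.64 ± 0.33; 0.0206 to 0.128), where the range is the adjusted p with single libraries left out. CCND1 (−0.33 ± 0.37) and CDK4 (−0.07 ± 0.16) were not called. CDKN1A, the inhibitor p21 and a p53 target, had 158 and 168 TPM with DMSO and 289 and 226 TPM with 7F8 (0.65 ± 0.38, adjusted p = 0.319). Of 30 p53 targets 1 was called higher (TP53INP1, 1.26 ± 0.32) and 2 lower (DDB2, −1.29 ± 0.20, and AEN, −1.24 ± 0.30). These were 3.33% and 6.67%, near the 2.62% and 7.36% of all genes. DDB2 recognises damage by ultraviolet light, AEN is a nuclease and TP53INP1 promotes autophagy. In fits without 1 library the adjusted p ran over 0.0279 to 0.213 for TP53INP1, 0.0139 to 0.0655 for DDB2 and 0.0585 to 0.179 for AEN. After median-of-ratios scaling AEN had an adjusted p of 0.0576.

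Of 53 ribosome biogenesis factors 31 were called lower (58.5%, against 7.36% of all genes) and 0 higher. Their median was −0.85 (−0.96 in 7F8 replicate 1 and −0.78 in 7F8 replicate 2). BYSL, needed for the small subunit, had 61.6 and 56.1 TPM with DMSO and 24.7 and 21.9 TPM with 7F8 (−1.30 ± 0.20, adjusted p = 0.00546). MRTO4 and NOP16, factors of the large subunit, had 104 and 75.4 TPM with DMSO and 38.4 and 33 TPM with 7F8 (−1.29 ± 0.20) and 149 and 104 TPM with DMSO and 53 and 54.3 TPM with 7F8 (−1.20 ± 0.18). Of 78 ribosomal proteins 2 were called higher (RPL12, 0.62 ± 0.14, and RPLP1, 0.69 ± 0.20) and 1 lower (RPS26, −0.64 ± 0.17), with a median of 0.11. These were 2.56% and 1.28%, against 2.62% and 7.36% of all genes. After median-of-ratios scaling 1 was called higher and 0 lower, with a median of 0.33, and the adjusted p was 0.089 for RPLP1 and 0.333 for RPS26. These genes have many near-identical pseudogenes, among which reads may be split. After median-of-ratios scaling 12 biogenesis factors were still called lower, with a median of −0.64. Without DMSO replicate 1, DMSO replicate 2, 7F8 replicate 1 or 7F8 replicate 2, 0, 14, 2 and 23 were called. The adjusted p then ran over 0.0206 to 0.0684 for BYSL, 0.0125 to 0.0684 for MRTO4, 0.0118 to 0.0666 for NOP16, 0.0303 to 0.17 for RPL12, 0.0814 to 0.284 for RPLP1 and 0.056 to 0.22 for RPS26. The E-box CACGTG, the letters bound by MYC among others, occurred in 18 of 45 promoters of the list (40.0%), in 7.43% of all promoters and in 10.3% of those of tested genes. Among genes called lower the E-box occurred in 87 of 835 promoters (10.42%), and among genes called higher in 34 of 266 (12.78%). In the lysosomal list it occurred in 8 of 28 promoters (28.6%), so it was not particular to lists with falls.

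Some genes for protein synthesis and energy in mitochondria were called lower, few of them after median-of-ratios scaling. Of 66 mitochondrial ribosomal proteins 19 were called lower (28.8%, median −0.57). Of 60 nuclear-encoded subunits of the respiratory chain 9 were called lower (15%, median −0.36), with 0 called higher in both lists. Over all genes 7.36% were called lower. MRPL3, a protein of the large mitochondrial subunit, had 131 and 122 TPM with DMSO and 55.5 and 56.1 TPM with 7F8 (−1.17 ± 0.15, adjusted p = 0.00201) and stayed called without each library. ATP5MC1, which encodes the c subunit of ATP synthase, had 602 and 500.3 TPM with DMSO and 225 and 317 TPM with 7F8 (−1.04 ± 0.17, adjusted p = 0.00665; 0.00596 to 0.0815 with single libraries left out). Of 37 proteasome subunits 7 (18.9%) and of 25 heat shock chaperones 6 (24%) were called lower. Among the latter was HSPE1, with 891 and 636 TPM with DMSO and 401 and 483 TPM with 7F8 (−0.77 ± 0.19). Its partner HSPD1 (−0.93 ± 0.26) was another, and both fold proteins in mitochondria. PSMC3, an ATPase of the proteasome cap, had 209 and 191 TPM with DMSO and 114 and 114 TPM with 7F8 (−0.81 ± 0.17). The median of all genes was −0.19, and after median-of-ratios scaling 3 mitochondrial ribosomal, 2 respiratory chain, 0 proteasome and 0 heat shock genes were called lower. Under that scaling 4.14% of all genes were called lower. In the order of libraries left out above, 1, 6, 1 and 7 mitochondrial ribosomal, 0, 2, 0 and 6 respiratory chain, 0, 1, 0 and 4 proteasome and 0, 1, 0 and 2 heat shock genes were called.

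**Figure D3:**
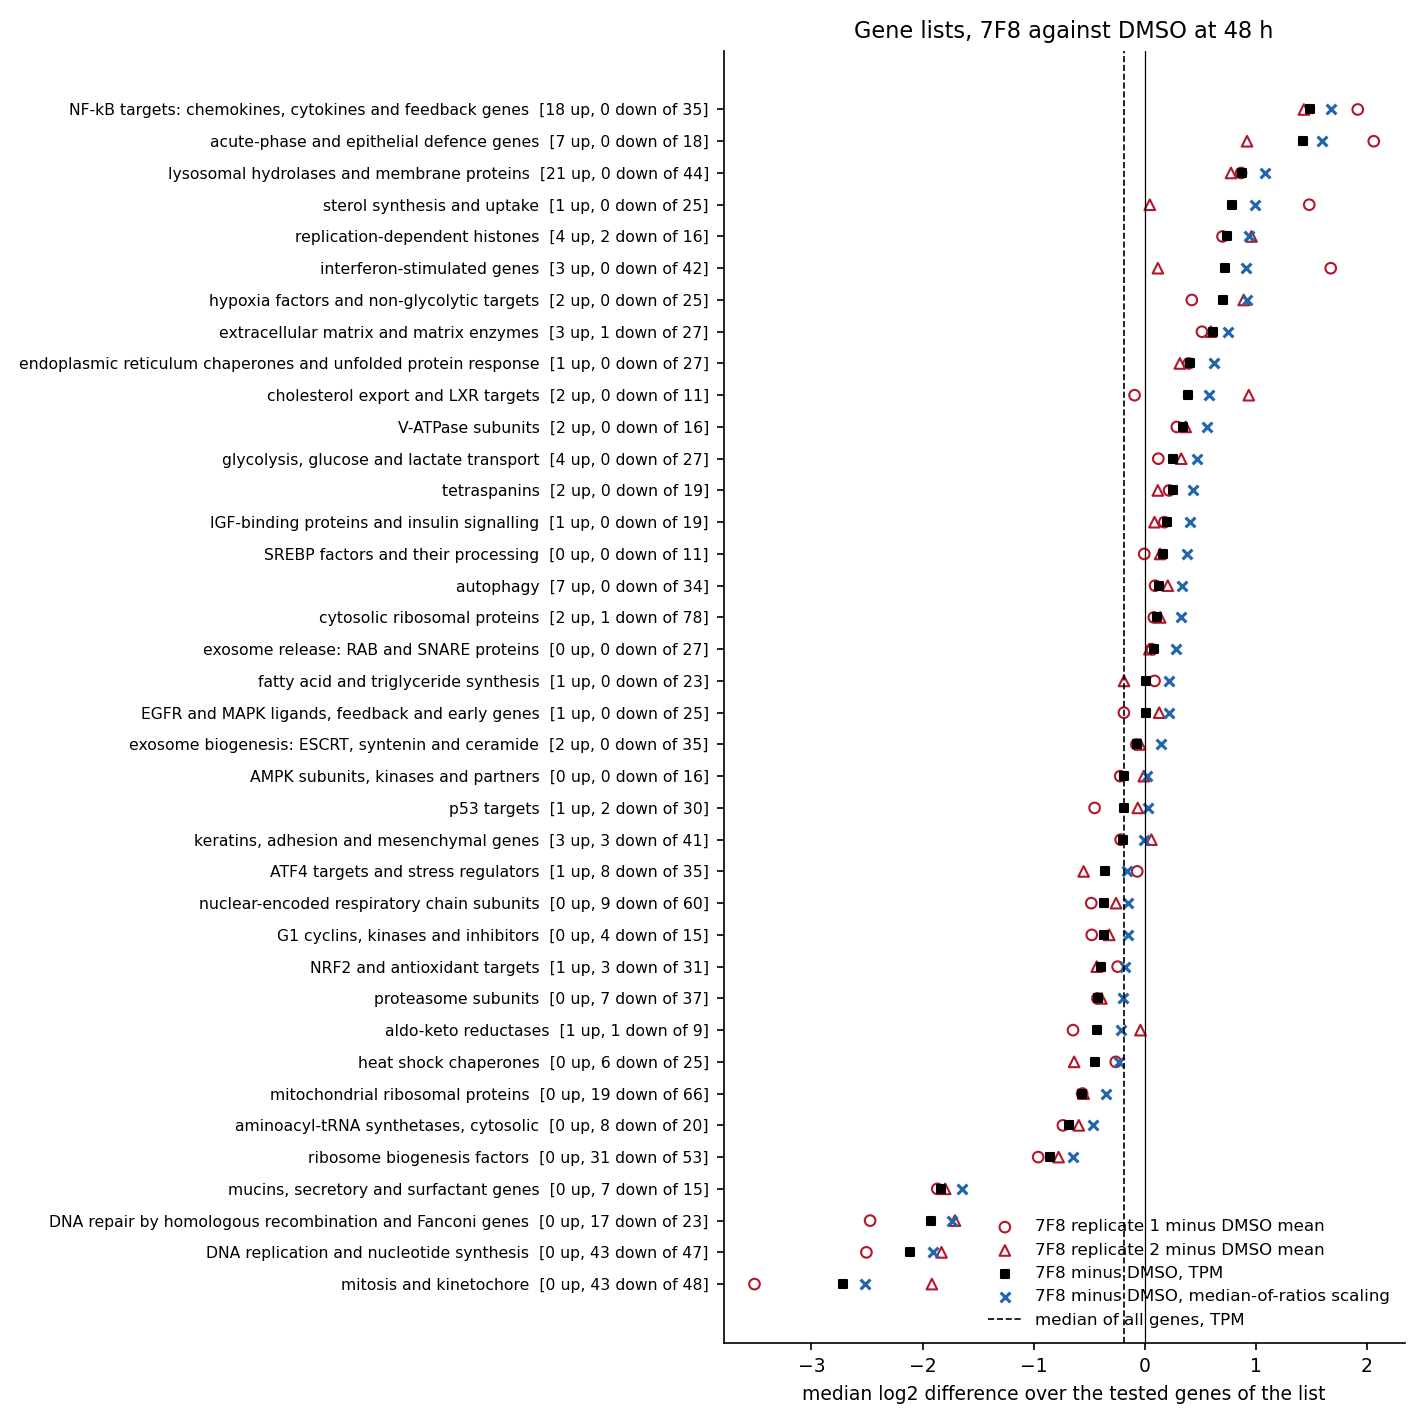
Median log2 difference over the tested genes of 38 lists, with the number called higher (up) and lower (down) beside each name. Black squares are 7F8 minus DMSO in TPM, blue crosses the same after median-of-ratios scaling, and open circles and triangles are 7F8 replicates 1 and 2 minus the DMSO mean; the NF-kB list is highest at 1.48 and the mitosis list lowest at −2.71.

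Genes of serine and asparagine synthesis fell. Of 35 targets and regulators of ATF4, the factor that responds to amino acid shortage and stress, 8 were called lower (22.9%) and 1 higher (2.86%). Over all genes 7.36% were called lower and 2.62% higher. The list median was −0.36 (−0.07 in 7F8 replicate 1 and −0.55 in 7F8 replicate 2). PHGDH and PSAT1, the first steps of serine synthesis, had 42.9 and 42.3 TPM with DMSO and 3.24 and 9.56 TPM with 7F8 (−2.70 ± 0.38, adjusted p = 0.00311) and 155 and 175 TPM with DMSO and 36.2 and 58.2 TPM with 7F8 (−1.82 ± 0.30, adjusted p = 0.00597). ASNS, asparagine synthetase, had 39.8 and 40.2 TPM with DMSO and 5.97 and 10.02 TPM with 7F8 (−2.23 ± 0.25, adjusted p = 0.00179). DDIT3 (CHOP), linked to cell death under stress, had 32.7 and 29.3 TPM with DMSO and 65.1 and 35.7 TPM with 7F8 (0.63 ± 0.75, adjusted p = 0.655). The called rise was that of CEBPB, a partner of inflammatory transcription (0.79 ± 0.16). ATF4 itself had 415 and 364 TPM with DMSO and 258 and 265 TPM with 7F8 (−0.57 ± 0.19, adjusted p = 0.083). The cytosolic aminoacyl-tRNA synthetases, which load amino acids on tRNA, had 8 of 20 (40%) called lower and 0 higher (median −0.68). Among the lower ones was IARS with 116 and 162 TPM with DMSO and 45.2 and 66.9 TPM with 7F8 (−1.30 ± 0.26). With single libraries left out in the same order 2, 4, 2 and 9 genes of the ATF4 list and 0, 2, 0 and 8 synthetases were called. PHGDH and ASNS stayed called each time, and the adjusted p ran over 0.00833 to 0.0762 for PSAT1 and 0.0131 to 0.13 for IARS. After median-of-ratios scaling 5 of the ATF4 list and 5 synthetases were called lower.

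Of 15 tested mucins, secretory and surfactant genes 7 were called lower (46.7%, against 7.36% of all genes) and 0 higher. Their median was −1.83 (−1.87 in 7F8 replicate 1 and −1.80 in 7F8 replicate 2). SPDEF, the transcription factor of goblet cells, had 38 and 20.9 TPM with DMSO and 1.83 and 0.183 TPM with 7F8 (−3.998 ± 0.75, adjusted p = 0.00986). AGR2, a chaperone that folds mucins, had 240.1 and 452 TPM with DMSO and 53.5 and 86.8 TPM with 7F8 (−2.26 ± 0.31, adjusted p = 0.00297). MUC5AC, the gel-forming mucin of the airway surface, had 84.2 and 90.3 TPM with DMSO and 9.7 and 10.1 TPM with 7F8 (−3.02 ± 0.68, adjusted p = 0.018). DDC (chr7:50458436-50565460), which decarboxylates DOPA to dopamine, had 9.95 and 8.4 TPM with DMSO and 0.481 and 0.236 TPM with 7F8 (−2.91 ± 0.22, adjusted p = 0.000163). DDC was below 1 TPM in both 7F8 libraries, so it passed the filter through DMSO. The 4-transmembrane proteins TM4SF4 and TM4SF20 had 132 and 95.7 TPM with DMSO and 3.48 and 8.5 TPM with 7F8 (−4.12 ± 0.82, adjusted p = 0.0124) and 66.9 and 62.5 TPM with DMSO and 3.84 and 4.66 TPM with 7F8 (−3.65 ± 0.89, adjusted p = 0.0253). APOH, a plasma glycoprotein that binds phospholipid, had 15.9 and 15.1 TPM with DMSO and 0.433 and 0.481 TPM with 7F8 (−3.50 ± 0.41, adjusted p = 0.00194). APOH too was below 1 TPM in both 7F8 libraries and passed the filter through DMSO. DDC and TM4SF4 count in the list, which is thus wider than mucus secretion. AGR2, DDC and APOH stayed called without each library, 2, 4, 2 and 5 genes of the list were called in the same order of left-out libraries, and the adjusted p ran over 0.0335 to 0.092 for SPDEF, 0.0224 to 0.126 for TM4SF4, 0.0722 to 0.16 for TM4SF20 and 0.0585 to 0.13 for MUC5AC.

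Of 12 epithelial and A549 markers 3 (25%, against 7.36% of all genes) were called lower (EPCAM, AKR1B10 and KRT18) and 0 higher. After median-of-ratios scaling 2 were called lower. Without DMSO replicate 1, DMSO replicate 2, 7F8 replicate 1 or 7F8 replicate 2, 0, 0, 0 and 3 were called. EPCAM, the epithelial adhesion molecule, had 7.7 and 7.84 TPM with DMSO and 0.375 and 0.799 TPM with 7F8 (−2.48 ± 0.49, adjusted p = 0.0118; 0.0278 to 0.117 with single libraries left out). AKR1B10, an aldo-keto reductase of NRF2-active lung tumours, had 5286 and 5611 TPM with DMSO and 1343 and 1640.2 TPM with 7F8 (−1.88 ± 0.35, adjusted p = 0.00959; 0.0223 to 0.101). GPX2, a glutathione peroxidase under NRF2, had 461 and 555 TPM with DMSO and 36 and 123 TPM with 7F8 (−2.90 ± 0.62, adjusted p = 0.0153; 0.00953 to 0.158), while NQO1, a reductase under the same factor, had 1627 and 1697 TPM with DMSO and 1332 and 1303 TPM with 7F8 and was not called. Of 31 NRF2 targets 3 were called lower (1 after median-of-ratios scaling) and 1 higher, the latter being FTH1. These were 9.68% and 3.23%, near the 7.36% and 2.62% of all genes. Among 41 keratin, adhesion and mesenchymal genes 3 were called higher and 3 lower, 7.32% each. Over all genes 2.62% were called higher and 7.36% lower, so the share of falls was that of all genes. EPCAM, below 1 TPM in both 7F8 libraries, passed the filter through DMSO. ITGA3, an integrin that binds laminin, had 286 and 261 TPM with DMSO and 845 and 669 TPM with 7F8 (1.46 ± 0.22, adjusted p = 0.00527; 0.00918 to 0.0655). PLAUR, the receptor of urokinase, had 110.1 and 135 TPM with DMSO and 459 and 476 TPM with 7F8 (1.93 ± 0.24, adjusted p = 0.00198) and stayed called without each library. Vimentin (VIM), with 951 and 1184 TPM with DMSO and 918 and 1720.2 TPM with 7F8, and CDH2, with 26.7 and 18.2 TPM with DMSO and 37 and 30.3 TPM with 7F8, were not called.

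Sterol genes, which the title of the study puts in view, differed mainly in 1 of the 2 libraries. Of 25 genes of sterol synthesis and uptake 1 was called higher (LSS, lanosterol synthase, 1.70 ± 0.43) and 0 lower. This share of 4%, and 4.35% of the fatty acid list below, stand beside 2.62% of all genes called higher. The list median of 0.79 was 1.48 in 7F8 replicate 1 and 0.05 in 7F8 replicate 2. HMGCS1, the synthase that starts the mevalonate pathway, had 62.9 and 48.2 TPM with DMSO and 211 and 37.9 TPM with 7F8 (0.70 ± 0.59, adjusted p = 0.502). INSIG1, the protein that holds SREBPs in the endoplasmic reticulum and is their target, had 38.6 and 32 TPM with DMSO and 202 and 57.3 TPM with 7F8 (1.59 ± 0.57, adjusted p = 0.102). SQLE, squalene epoxidase, had 69.7 and 69 TPM with DMSO and 330.1 and 83.1 TPM with 7F8 (1.25 ± 0.47, adjusted p = 0.119). In all of these replicate 1 of 7F8 stood far above the controls and replicate 2 much nearer to them. Without 7F8 replicate 2, 12 genes of the list were called, and without any of the other libraries 0 were. SREBF1 and SREBF2, which encode the factors, had 141 and 226 TPM with DMSO and 179 and 185 TPM with 7F8 (0.03 ± 0.46) and 60.9 and 79.1 TPM with DMSO and 107 and 73.7 TPM with 7F8 (0.35 ± 0.37), and 0 of 11 genes of SREBP processing were called. FASN and SCD, which make and desaturate fatty acids, had 129 and 154 TPM with DMSO and 181 and 124 TPM with 7F8 (0.08 ± 0.48) and 523 and 1063 TPM with DMSO and 1264 and 1139 TPM with 7F8 (0.68 ± 0.72); of 23 such genes 1 was called higher (FADS3, 1.39 ± 0.25) and 0 lower. Of 16 genes of AMPK, its kinases and partners 0 were called in the limma test and 2 higher after median-of-ratios scaling. Under that scaling 4.0% of all genes were called higher. PRKAA1, a catalytic subunit, had 36.2 and 52.3 TPM with DMSO and 24.8 and 35.9 TPM with 7F8 (−0.53 ± 0.27) and STK11, the upstream kinase LKB1, 38.5 and 51.8 TPM with DMSO and 39.2 and 53 TPM with 7F8 (0.03 ± 0.21). TXNIP, which blocks glucose uptake and is degraded on AMPK activity, had 1.37 and 5.35 TPM with DMSO and 34.6 and 8.3 TPM with 7F8 (2.23 ± 0.70, adjusted p = 0.0656; 0.0271 to 0.452 with single libraries left out). The sign of the SREBF1, HMGCS1, FASN and STK11 differences changed with some of the libraries left out.

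CD63, whose single value in the tables does not separate the fusion from the cell's own gene, had 1902 and 2054 TPM with DMSO and 1905 and 1524 TPM with 7F8 (−0.21 ± 0.24, adjusted p = 0.626), and its difference was 0.00 after median-of-ratios scaling. The exosome tetraspanins CD9 and CD81 had 159 and 199.8 TPM with DMSO and 171 and 283 TPM with 7F8 (0.31 ± 0.32) and 282 and 275 TPM with DMSO and 375 and 294 TPM with 7F8 (0.25 ± 0.14). Of 19 tetraspanins 2 were called higher, CD82, with 2.16 and 3.7 TPM with DMSO and 26.4 and 11.6 TPM with 7F8 (2.27 ± 0.47), and TSPAN3, with 179 and 169.9 TPM with DMSO and 363 and 257 TPM with 7F8 (0.81 ± 0.23), and 0 lower. This is 10.5% against 2.62% of all genes called higher, and without DMSO replicate 1, DMSO replicate 2, 7F8 replicate 1 or 7F8 replicate 2 it was 0, 1, 0 and 2 genes. Of 35 genes of ESCRT, syntenin and ceramide 2 were called higher (5.71%) and 0 lower, 3 higher after median-of-ratios scaling, and 0, 1, 1 and 2 in the fits without 1 library in that order. SDCBP, syntenin, which links syndecans to ESCRT during exosome budding, had 156 and 201 TPM with DMSO and 467 and 517 TPM with 7F8 (1.47 ± 0.22, adjusted p = 0.00513; 0.0171 to 0.0691 with single libraries left out). The other was SMPD1, acid sphingomyelinase, also in the lysosomal list (1.02 ± 0.28). Of 27 RAB and SNARE genes of exosome release 0 were called by limma and 2 higher after median-of-ratios scaling. Under that scaling 4.0% of all genes were called higher. RAB27A, a GTPase that docks multivesicular bodies, had 7.06 and 11.1 TPM with DMSO and 9.41 and 14.7 TPM with 7F8 (0.37 ± 0.34). Genes of cholesterol export had NPC1 and NPC2 as their only calls among 11, and ABCA1, the cholesterol exporter, had 1.48 and 14.9 TPM with DMSO and 4.04 and 24 TPM with 7F8, with replicate 2 the higher in both groups.

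The remaining lists are read beside the 2.62% of all genes called higher and 7.36% called lower. In glycolysis 4 of 27 genes (14.8%) were called higher: HK2, a hexokinase (1.0 and 2.66 TPM with DMSO and 12.1 and 6.33 TPM with 7F8), ALDOA and ALDOC, aldolases (0.86 ± 0.18 and 2.10 ± 0.57), and SLC16A3, the lactate exporter MCT4 (1.13 ± 0.32). Among 25 hypoxia genes 2 (8.0%) were called higher: CA12, a carbonic anhydrase (1.51 ± 0.36), and P4HA1, a collagen hydroxylase (1.67 ± 0.41). CA9, another hypoxic carbonic anhydrase, had 10.3 and 35.9 TPM with DMSO and 4.6 and 9.17 TPM with 7F8 and was not called. Matrix genes had 3 called higher (PLAUR, LOXL2, 1.33 ± 0.32, and TIMP2, 1.13 ± 0.28) and 1 lower (THBS1, thrombospondin, −1.50 ± 0.41) of 27, and 6 higher and 0 lower after median-of-ratios scaling, where THBS1 had an adjusted p of 0.0953. That scaling, which called 4.0% of all genes higher, called 6 glycolysis, 5 hypoxia, 3 endoplasmic reticulum stress and 2 IGF-binding or insulin genes higher. Of 27 endoplasmic reticulum stress genes 1 was called (CRELD1, 1.18 ± 0.25), and the chaperone HSPA5 had 834 and 1042 TPM with DMSO and 1433 and 1072 TPM with 7F8. In the histone list 4 of 16 were called higher and 2 lower; the lower ones, H2AFX (−1.71 ± 0.34) and H2AFZ (−1.55 ± 0.31), are variants with polyadenylated transcripts, and the higher ones are clustered histones such as HIST1H2AG (2.29 and 2.37 TPM with DMSO and 5.72 and 13.4 TPM with 7F8), whose transcripts mostly lack a poly(A) tail. IGFBP1, which binds insulin-like growth factors, was the only call among 19 genes of its list (2.13 ± 0.47), and JUNB, an AP-1 factor, among 25 EGFR and MAPK genes (1.34 ± 0.30). HMOX1, haem oxygenase, had 257 and 238 TPM with DMSO and 108 and 106 TPM with 7F8 (−1.20 ± 0.48, adjusted p = 0.135). In fits without 1 library in the order used above 0, 1, 0 and 4 glycolysis, 0, 3, 0 and 2 hypoxia, 1, 2, 1 and 1 matrix and 0, 2, 1 and 3 histone genes were called.

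7F8 was next set against the other inhibitors at the same labelled dose and time, 2 comparisons in all, with p-values adjusted within each. Against 5G6 the limma test called 5 genes higher (0.0339%) and 37 lower (0.251%), and 1294 had an unadjusted p below 0.05. Against 6D7 it called 12 higher (0.0813%) and 41 lower (0.278%), and 1843 had an unadjusted p below 0.05. EFNA1 had 189 and 95.9 TPM with 5G6 and 94.4 and 88 TPM with 6D7, against 915 and 656 TPM with 7F8 and 74.4 and 83.2 TPM with DMSO. The differences were 2.51 ± 0.45 (adjusted p = 0.0436) and 3.07 ± 0.45 (adjusted p = 0.0295). G0S2 had 20.8 and 14.2 TPM with 5G6 and 19.9 and 12.6 TPM with 6D7 against 108 and 66 TPM (2.23 ± 0.32, adjusted p = 0.0327, and 2.34 ± 0.32, adjusted p = 0.019). CXCL10 had 5.82 and 3.94 TPM and 3.78 and 4.05 TPM with these compounds, and was called against 6D7 (2.08 ± 0.37, adjusted p = 0.04) but not against 5G6 (1.84 ± 0.37, adjusted p = 0.0751). UXS1, which makes UDP-xylose for proteoglycans, and NFE2L3, a relative of NRF2, were higher with 7F8 than with 5G6 by 1.06 ± 0.18 and 1.28 ± 0.20. Both were also called higher than with 6D7, by 1.22 (adjusted p = 0.0295) and 1.26 (adjusted p = 0.0389). IFNL2 was higher than with 6D7 by 2.37 ± 0.41, and its difference of 1.34 from 5G6 was not called (adjusted p = 0.268).

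The amino acid genes differed in the opposite direction. PHGDH had 24.1 and 31.4 TPM with 5G6 and 47.3 and 47.4 TPM with 6D7 against 3.24 and 9.56 TPM with 7F8 (−2.09 ± 0.38, adjusted p = 0.0487, and −2.85 ± 0.38, adjusted p = 0.0185). ASNS had 28.6 and 32.3 TPM and 51.8 and 54.9 TPM against 5.97 and 10.02 TPM (−1.84 ± 0.25, adjusted p = 0.0327, and −2.63 ± 0.25, adjusted p = 0.00338). ATF4 had 556 and 563 TPM and 938 and 622 TPM against 258 and 265 TPM (−1.10 ± 0.19, adjusted p = 0.0436, and −1.54 ± 0.19, adjusted p = 0.0185). KRT19, a keratin of simple epithelia, had 291 and 391 TPM and 263 and 352 TPM against 16.7 and 39.9 TPM with 7F8 and 37.4 and 80.7 TPM with DMSO (−3.65 ± 0.47, adjusted p = 0.0327, and −3.50 ± 0.47, adjusted p = 0.0185). AGR2 had 221 and 285 TPM and 254 and 262 TPM against 53.5 and 86.8 TPM with 7F8 and 240.1 and 452 TPM with DMSO (−1.86 ± 0.31 and −1.91 ± 0.31, adjusted p = 0.0387 and 0.0389). FXYD2, a regulator of the sodium pump, ANXA13, an annexin of epithelial membranes, the non-coding GACAT2 and CA9 had the largest called differences below 5G6, of −4.20 ± 0.69, −3.82 ± 0.68, −3.75 ± 0.57 and −3.68 ± 0.60. Of these only GACAT2 was also called against 6D7 (−3.46, adjusted p = 0.0389).

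Other genes gave no call between compounds, and the 95% intervals show how much room remains. For NEU1 the interval of the difference was −0.47 to 0.57 against 5G6 and −0.28 to 0.76 against 6D7, and for CTSD −0.44 to 0.50 and −0.36 to 0.58. For MKI67 it was −2.92 to −0.01 and −2.11 to 0.81, so that a several-fold difference is not left out. SOD2 had 1118 and 965 TPM with 5G6 and 1665 and 804 TPM with 6D7 against 3308 and 2323 TPM, and was higher with 7F8 by 1.42 ± 0.28 (adjusted p = 0.0741) and 1.26 ± 0.28 (adjusted p = 0.087), which was not called. INSIG1 had 538 and 430.2 TPM and 463 and 313 TPM, and its interval was −3.40 to −0.90 and −3.06 to −0.56 (adjusted p = 0.192 and 0.21). The list medians against DMSO, which share the DMSO libraries, stood side by side for 7F8, 5G6 and 6D7 at 0.79, 2.25 and 1.68 for sterol genes, 1.48, 0.88 and 0.93 for NF-kB targets, 0.87, 0.78 and 0.68 for lysosomal genes, −2.71, −1.54 and −2.31 for mitosis genes, and −0.36, 0.23 and 0.42 for the ATF4 list.

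These counts also rested on single libraries. Against 5G6 the total was 42, and it was 3 without 5G6 replicate 1, 1 without 5G6 replicate 2, 10 without 7F8 replicate 1 and 21 without 7F8 replicate 2. Against 6D7 the total was 53, and it was 12 without 6D7 replicate 1, 299 without 6D7 replicate 2, 4 without 7F8 replicate 1 and 56 without 7F8 replicate 2. Mitochondrial genes took 6.13% and 6.477% of the authors' TPM in the 6D7 libraries against 32.3% and 31.4% in the 7F8 libraries, and with those genes kept in the total 2380 genes were called lower with 7F8 than with 6D7 and 34 higher.

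**Figure D4:**
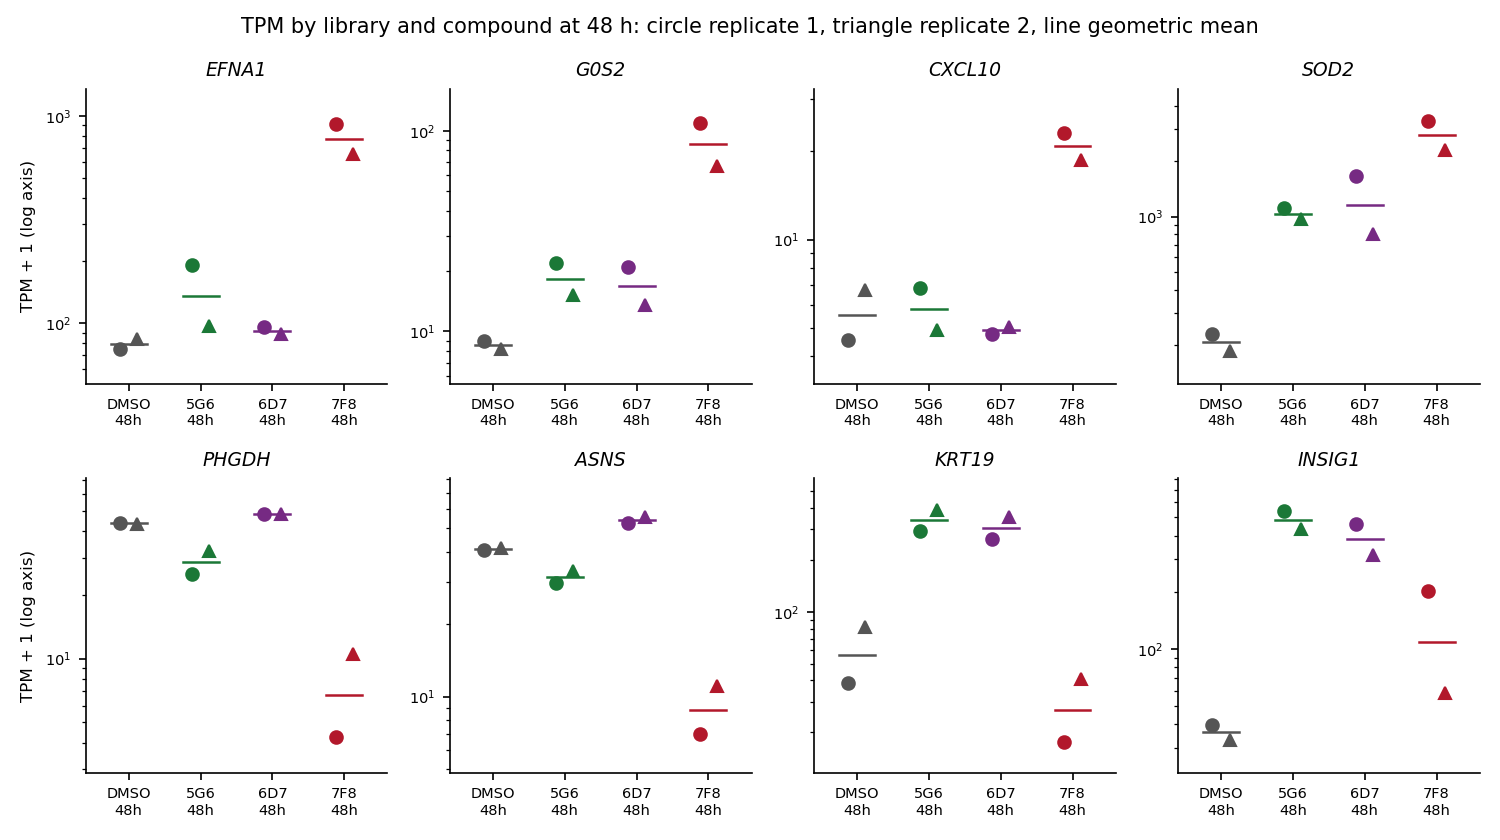
TPM plus 1 on log axes of 8 genes in the DMSO, 5G6, 6D7 and 7F8 libraries at 48 h, with circles for replicate 1, triangles for replicate 2 and lines for the geometric mean. EFNA1 and G0S2 are highest with 7F8, PHGDH and ASNS lowest with 7F8, and KRT19 and INSIG1 are highest with 5G6 and 6D7.

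The last comparison asked whether the effect of 7F8 at 48 h differed from that at 4 h. The limma test of that difference called 1 gene (0.00678%), and 1344 had an unadjusted p below 0.05. The gene was DDC, with 6.93 and 6.4 TPM in DMSO and 5.75 and 5.07 TPM in 7F8 at 4 h and 9.95 and 8.4 TPM and 0.481 and 0.236 TPM at 48 h. Its effect was −0.26 at 4 h and −2.91 at 48 h, a difference of −2.65 ± 0.31 (adjusted p = 0.0357). With 1 of the 8 libraries left out in turn, the difference lay between −2.78 and −2.52 and was called in 1 of 8 fits, the one without 7F8-48h replicate 2, with adjusted p from 0.0315 to 0.206. Between 7F8 and DMSO at 4 h, 0 genes were called by limma under either scaling, and 831 had an unadjusted p below 0.05.

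Values at 4 h are given beside those at 48 h for the main groups. SOD2 had 189 and 211 TPM with DMSO and 815 and 886 TPM with 7F8 at 4 h, where its difference of 2.08 had an adjusted p of 0.0633. CXCL8 had 83.9 and 104 TPM and 156 and 1502 TPM, and CCL20 16.1 and 27.5 TPM and 27.3 and 487 TPM, so in both genes replicate 2 of 7F8 at 4 h carried most of the level. SQSTM1 had 787 and 1132 TPM and 2012 and 2371 TPM. These inflammatory and autophagy genes thus stood above the 4 h controls in both replicates or in 1 of them. NEU1 had 25.7 and 22.9 TPM and 40.2 and 33.5 TPM at 4 h and differed between times by 1.91 ± 0.34 (adjusted p = 0.181). MKI67 had 50.4 and 30.8 TPM and 33.5 and 24.4 TPM, a difference between times of −2.83 ± 0.94 (adjusted p = 0.362), and RRM2 109 and 172 TPM and 58.6 and 112 TPM, a difference of −2.79 ± 1.01 (adjusted p = 0.418). The 95% intervals of the difference between times were 0.79 to 2.54 for SOD2, 1.17 to 2.64 for NEU1 and −4.89 to −0.77 for MKI67. List medians at 4 h and 48 h were 1.08 and 1.48 for NF-kB targets, 0.11 and 0.87 for lysosomal genes, −0.32 and −2.71 for mitosis, −0.39 and −2.11 for replication, and −0.26 and −1.83 for the secretory list.

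**Figure D5:**
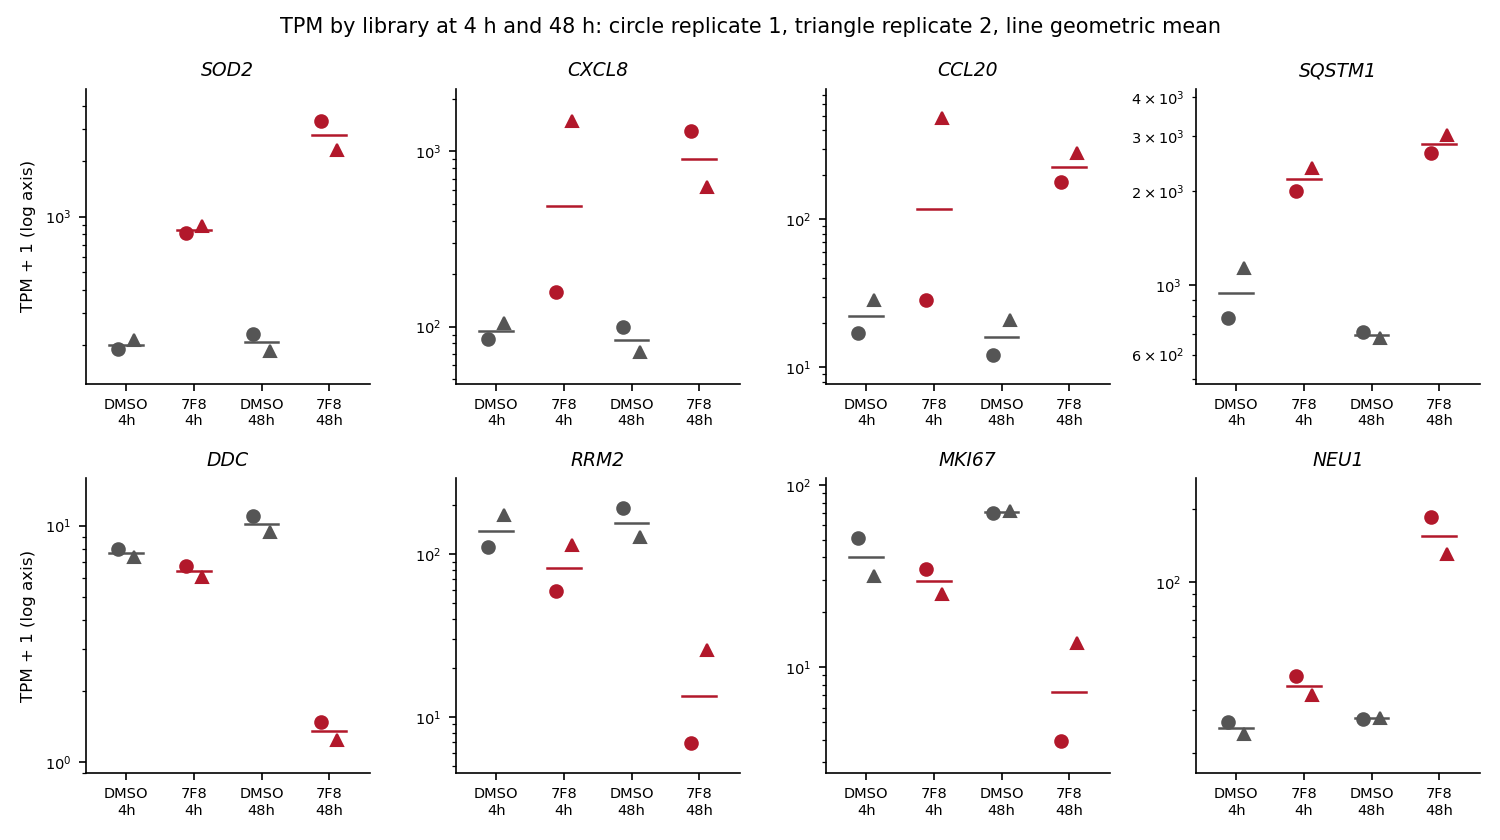
TPM plus 1 on log axes of 8 genes with DMSO and 7F8 at 4 h and 48 h, with circles for replicate 1, triangles for replicate 2 and lines for the geometric mean. SOD2 and SQSTM1 lie above the controls at both times, while the 7F8 values of DDC, RRM2 and MKI67 at 48 h lie below those at 4 h.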

How the data were processed

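RNA was extracted with TRIzol and treated with DNase I, and poly(A) libraries were made with a NEBNext Ultra kit, per the labels' protocols. The submitters' processing notes name STAR 2.6.1a, featureCounts 1.6.3, StringTie 2.0 and GRCh38 without a role or order, and the use of strand was not given in the sources used here. Each library's deposited table gives the authors' coverage, FPKM and TPM per gene, and read counts were not used here. TPM values were summed by gene name over 39550 names, mitochondrial genes were dropped, and each library was rescaled to 1000000. FPKM rescaled in the same way from the deposited tables differed from TPM by a relative 2.01e-06 at most and was not analysed further. Coverage as deposited served only to estimate the aligned bases.

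Genes with at least 1 TPM in at least 2 of the 4 libraries were tested with limma 3.58.1 in R 4.3.3 on log2(TPM + 1), two-sided, with 8 group means over 16 libraries, 8 residual degrees of freedom, a mean-variance trend and Benjamini-Hochberg adjustment. Groups came from the sample titles. The code was tested on simulated data. Tables and figures used Python 3.11.15, pandas 2.3.3, numpy 2.4.6 and matplotlib 3.10.9.

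The members and gene lists were chosen with earlier results of these data known. Genes were named by rule, among called genes with a mean of at least 5 TPM in the higher group and no overlap between the groups. They were the 12 largest rises and falls and the 3 smallest p in each list with at least 3 calls. The 4 largest called differences each way between compounds and times were added, and a set of pathway genes whether called or not. Part of these is printed, some are not reported here, and genes named beyond the rule were chosen after their values were seen. Of 14752 genes tested, 10973 matched a RefSeq promoter (GRCh38.p14). Alternatives covered scaling, mitochondrial genes, pseudocount, filter, trend, replicate block, the libraries in the fit and leaving out each library.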

Additional observations from a re-analysis of the deposited data

Results flagged for a closer look

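DDC differed between times in its response to 7F8. Its values with 7F8 at 48 h were below 1 TPM, so it passed the filter through DMSO. The effect at 48 h minus that at 4 h was −2.65 ± 0.31 on the log2(TPM + 1) scale (limma, adjusted p = 0.0357), with effects of −2.91 at 48 h and −0.26 at 4 h. It was called in 1 of the 8 fits that left out a library.

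Mitochondrial genes, which were dropped before the tests, took a mean of 31.8% of the authors' TPM in the 7F8 libraries at 48 h against 29.96% with DMSO at 48 h. The single libraries had 32.3% and 31.4% with 7F8 and 31.0% and 29.0% with DMSO, and this difference was not tested.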

How the results depend on the processing

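For 7F8 against DMSO at 48 h, 1472 genes were called, and 341 with the 48 h libraries only, 225 with the 4 libraries only and 72 to 1084 with a library left out. Against 5G6, 42 were called, 19 after median-of-ratios scaling, 1 with the 48 h libraries only and 1 to 21 with a library left out. Against 6D7, 53 were called, 2414 with mitochondrial genes kept, 97 without the filter, 0 with the 48 h libraries only (limma, as for all these counts) and 4 to 299 with a library left out. For the difference between times, 1 was called, 2 after median-of-ratios scaling, 9 without the filter and 0 to 17 with a library left out. The cause of these changes was not tested, except that fewer libraries leave fewer degrees of freedom.

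With a replicate block, 2770, 160, 307 and 32 genes were called in these 4 comparisons. In the interferon list 16 of 42 were then called higher, against 3 without the block. The 28 correlations of deviations between same-numbered libraries ran from 0.066 to 0.627 (0.45 between DMSO and 7F8 at 48 h). The 3 at or below 0.1 each paired 6D7 at 48 h with a group at 4 h. Between groups at 48 h the correlations ran from 0.399 to 0.591. The labels do not say what a shared number marks, and not all correlations were above 0.1, so the block was not used. A shift shared by same-numbered libraries at 48 h is thus left in the spread of the main fit.

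Some differences changed sign. With mitochondrial genes kept, SREBF1 was at −0.012 and STK11 at −0.00981, and after median-of-ratios scaling CD63 was at 0.00397. With single libraries left out, the values ran from −0.31 to 0.36 for SREBF1, −0.53 to 1.92 for HMGCS1, −0.19 to 0.35 for FASN, −0.51 to 2.18 for ABCA1, −0.054 to 0.67 for CD9 and −0.18 to 0.24 for STK11. Of the 122 named genes, 109 kept direction and call after median-of-ratios scaling and 121 with a pseudocount of 0.1. TPM gives no depth per gene, so no counting interval was computed, and groups of 2 allowed no test for outlying libraries.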
